A study of Mus musculus with 12 samples.

Results

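The 10 genes described here build the brush border, the carpet of microvilli on the apical face of intestinal epithelial cells. They are Cdhr2, Cdhr5, Ush1c, Myo7b, Anks4b, Vil1, Espn, Eps8, Ezr and Myo1a, and they were taken from the deposited table by gene symbol, with the transcripts of each symbol added up. They are 10 of 35241 gene symbols in the table, and all 10 are among the 15880 genes abundant enough to be tested. RNA of full-thickness distal colon was sequenced from 12 mice. Spry2IEKO mice (Vil1::Cre;Spry2-f/f, n = 6) carried homozygous floxed Spry2 alleles and a Cre recombinase under the villin promoter, which acts in intestinal epithelium. Spry2FF mice (Spry2-f/f, n = 6) were littermates that carried the same floxed alleles without Cre, so that an effect of Cre itself and an effect of losing Spry2 cannot be told apart. Both litters, named A and B, gave 3 mice per genotype. Of the Spry2FF mice 3 were male and 3 female, against 1 male and 5 female Spry2IEKO mice. Age is given as 6 weeks in one protocol field and 8 weeks in another.

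A microvillus is a finger of plasma membrane over a core of parallel actin filaments, and the roles of these genes follow that build. Villin and espin bundle the filaments, and Eps8 caps and bundles them at the tip. Ezrin and the motor myosin-1a tie the core to the membrane. Neighbouring microvilli are joined tip to tip by the protocadherins CDHR2 and CDHR5, whose tails are held by harmonin (Ush1c), ANKS4B and the motor myosin-7b in the intermicrovillar adhesion complex. In the colon these structures mark differentiated surface colonocytes, which absorb water and salt.

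Levels are normalized TPM, transcript abundances corrected for transcript length and scaled between mice by the authors. Differences are in log2(normalized TPM + 0.5), Spry2IEKO minus Spry2FF, from limma with p-values adjusted over all tested genes by the Benjamini-Hochberg method, and a gene was called at an adjusted p under 0.05. The summed value per mouse lay between 918257 and 1068555, and read depth is not kept in this unit. Spry2 itself lay between 18.5 and 22.5 in Spry2IEKO and between 22.8 and 32.3 in Spry2FF mice, without overlap. Of tested genes 0.214% were lower without overlap. The log2 difference of Spry2 was -0.45 (unadjusted p = 0.000174, limma adjusted p = 0.160), so the deleted gene itself was not called. The epithelial markers were present in every mouse, and their sum over 8 genes such as Epcam and Krt8 lay between 7940 and 10330 in Spry2IEKO and between 9171 and 11443 in Spry2FF. The tissue held all layers of the colon wall, so fewer epithelial cells and less RNA per cell cannot be told apart.

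All 10 genes were abundant, and their order was nearly the same in every mouse. Over the 12 mice, Cdhr5 stood highest at 417 ± 57.4 normalized TPM (SD). Ezr followed at 312 ± 42.2, Vil1 at 294 ± 32.1 and Myo1a at 253 ± 32.2. These 4 carry the core bundle, its membrane tie and the adhesion link. Cdhr2 averaged 166 ± 31.5, Ush1c 113 ± 12.7, Eps8 80.1 ± 12.1 and Anks4b 67.1 ± 6.25. The lowest were Myo7b at 32.9 ± 4.27 and Espn at 24.3 ± 4.82. Each gene exceeded the next in all 12 mice, except that Ezr exceeded Vil1, Vil1 exceeded Myo1a and Eps8 exceeded Anks4b in 11 of 12, so within these 3 pairs the order was not the same throughout. The ranges over all 12 mice overlapped for all neighbours in the order but Anks4b and Myo7b.

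The first comparison asks how brush border transcripts differ when the colonic epithelium has lost Spry2. Every one of the 10 genes had a lower mean in Spry2IEKO mice, by a log2 difference between -0.41 for Cdhr2 and -0.018 for Anks4b, with a median of -0.22 against 0.0076 over all tested genes, of which 47.9% lay below 0. None of the 10 passed the adjusted threshold in limma. At an unadjusted p under 0.05, 6 of the 10 were lower, Cdhr5, Cdhr2, Vil1, Ush1c, Ezr and Eps8, and none was higher. Over all genes, 3.17% were lower at that level and 0.0315% (5 genes) passed the adjusted threshold. Among them, named here after their values were seen, were B4galnt2, which was lower, and Cma1, Myo18b and Etv4, which were higher. The 10 genes were chosen with earlier results of these data known, so setting them against all genes is not an unbiased comparison. They also share libraries, scaling and epithelial content, so they are not 10 separate results. The plot of levels by mouse shows each of the 10 genes in each animal.

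**Figure D1:**
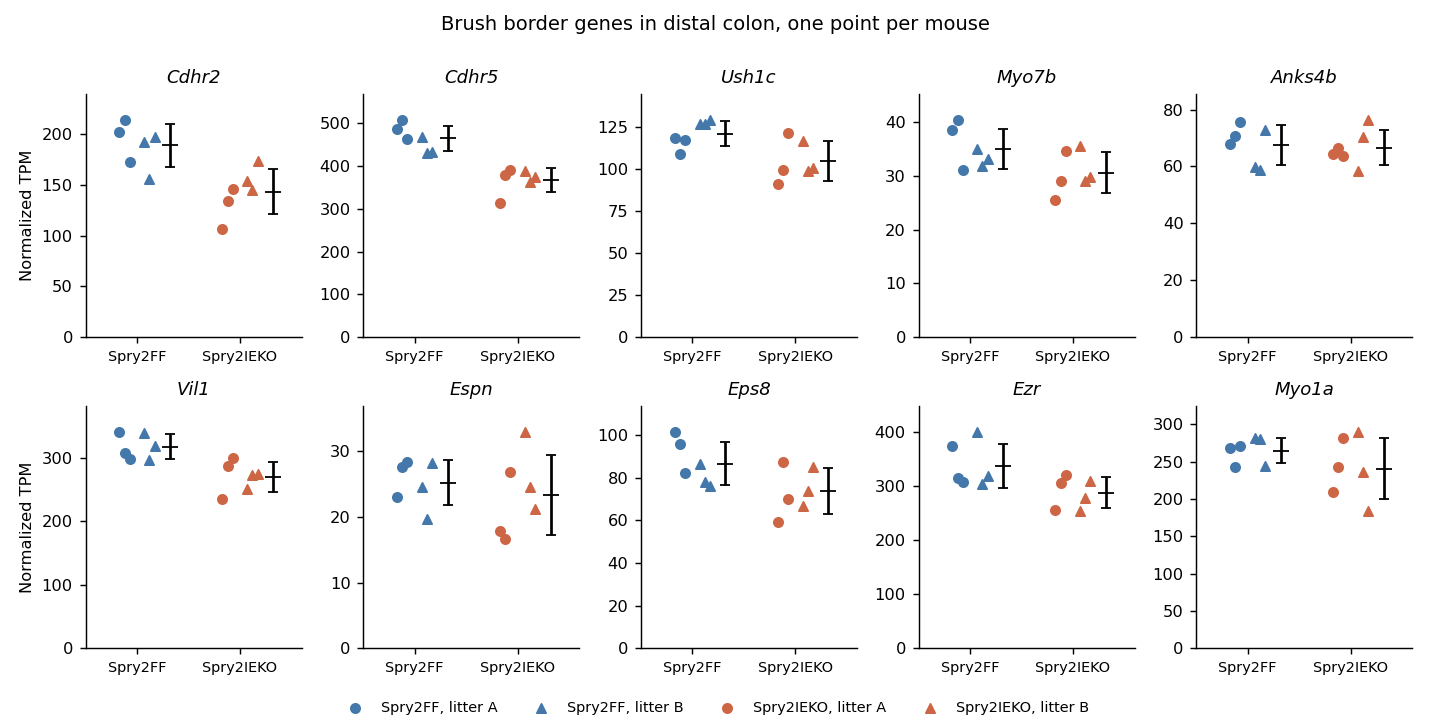
Normalized TPM (vertical axes, each from 0) of the 10 brush border genes in 6 Spry2FF and 6 Spry2IEKO mice. Each point is a mouse, circles are litter A and triangles litter B, and the bars beside each group give the mean and SD; only Cdhr5 separates all mice of one genotype from all of the other, at 314 to 390 against 431 to 507.

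The intermicrovillar adhesion complex held the widest estimates of the 10 genes, those of its protocadherins. Cdhr5 (ENSMUSG00000025497), the mucin-like protocadherin at microvillus tips, lies on the minus strand at chr7:141269083-141276786 (GRCm38). In Spry2IEKO mice its lowest value was 314, the median 377 and the highest 390. In Spry2FF mice the lowest was 431, the median 466 and the highest 507. Each Spry2IEKO mouse was therefore below each Spry2FF mouse, a separation in this direction that 0.214% of tested genes had. The means were 369 ± 28.2 and 465 ± 29.6 (SD, n = 6), a log2 difference of -0.34 ± 0.065 (SE, 95% interval -0.48 to -0.20; unadjusted p = 0.000181, limma adjusted p = 0.160). Cdhr5 ranked 18 of the 15880 genes by p-value, the first of the 10 members.

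Cdhr2 (ENSMUSG00000034918, chr13:54701461-54736662, plus strand) encodes the partner protocadherin that binds CDHR5 across the gap between microvilli. It had a median of 145 in Spry2IEKO mice, between 107 and 174. In Spry2FF mice the median was 194, between 156 and 213. Of the 6 Spry2IEKO mice 5 were below all Spry2FF mice, and the sixth, replicate 12 at 174, lay inside their range. The means were 143 ± 22.3 and 189 ± 21.1 (SD, n = 6), the widest log2 difference of the 10 genes at -0.41 ± 0.11 (SE, 95% interval -0.64 to -0.17; unadjusted p = 0.00265, limma adjusted p = 0.561).

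Because the protocadherin pair differed most between the genotypes, the 250 bases before their RefSeq start sites (GRCm38.p6) are shown in the direction of transcription, with capitals where one of 6 short motifs of enterocyte or general transcription factors was found. In Cdhr5 the capitals mark a CDX motif, CATAAA, that begins 39 bases before the start, and in Cdhr2 an HNF1 motif of 10 bases, the seventh of which was free to vary, that begins 54 bases before it.
Cdhr5, chr7:141276787-141277036, minus strand: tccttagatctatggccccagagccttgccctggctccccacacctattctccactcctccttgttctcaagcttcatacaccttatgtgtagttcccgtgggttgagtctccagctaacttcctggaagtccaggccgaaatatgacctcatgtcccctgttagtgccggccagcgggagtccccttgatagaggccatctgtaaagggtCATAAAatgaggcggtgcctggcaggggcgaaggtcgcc
Cdhr2, chr13:54701213-54701462, plus strand: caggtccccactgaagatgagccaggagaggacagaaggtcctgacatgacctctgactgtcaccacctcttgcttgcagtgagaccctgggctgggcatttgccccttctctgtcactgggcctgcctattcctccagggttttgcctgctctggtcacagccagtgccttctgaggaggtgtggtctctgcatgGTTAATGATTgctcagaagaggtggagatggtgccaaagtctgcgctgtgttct
On both strands, CATAAA was found in 10.8% of the 32851 RefSeq windows of this length and the HNF1 motif in 0.371%. Of the 8 members with a window, 2 had the CDX motif (Cdhr5 and Espn) and 1 the HNF1 motif. A match says only that these letters are there.

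The 3 cytoplasmic parts of the complex had smaller estimates. Ush1c (ENSMUSG00000030838, chr7:46195350-46238503, minus strand), the scaffold harmonin, had a median of 99.9 in Spry2IEKO mice, between 90.8 and 121. In Spry2FF mice the median was 122, between 109 and 129. The groups overlapped, with 4 of 6 Spry2IEKO mice below all controls, and the log2 difference was -0.21 ± 0.076 (SE; unadjusted p = 0.0142, limma adjusted p = 0.694). Myo7b (ENSMUSG00000024388), the motor that carries the complex to the tip, averaged 30.7 ± 3.81 against 35.1 ± 3.74 (SD, n = 6). Its log2 difference of -0.19 ± 0.094 (SE; unadjusted p = 0.0605) had a 95% interval that reached 0.0099. Anks4b (ENSMUSG00000030909, chr7:120173858-120185586, plus strand), the adaptor between harmonin and the motor, averaged 66.6 ± 6.09 against 67.6 ± 6.95. Its log2 difference of -0.018 had a 95% interval of -0.19 to 0.16 and the highest p-value of the 10 genes (unadjusted p = 0.825, limma adjusted p = 0.982). This interval did not reach the estimates for Cdhr5, Cdhr2 or Ush1c, and differences between the genes were not tested.

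Of the genes that bundle and cap the actin core, Vil1 (ENSMUSG00000026175, chr1:74409376-74435559, plus strand) is also the source of the promoter that drives Cre in the Spry2IEKO mice. Villin RNA had a median of 274 in these mice, between 236 and 299.95. In Spry2FF mice the median was 314, between 297 and 342. Of 6 Spry2IEKO mice 5 were below all controls, and replicate 6 at 299.95 lay just above the lowest control mice at 297 and 299.16. The means were 270 ± 23.5 and 318 ± 19.5 (SD, n = 6), a log2 difference of -0.23 ± 0.067 (SE, 95% interval -0.38 to -0.090; unadjusted p = 0.00382, limma adjusted p = 0.611). The 250 bases before the RefSeq start of the endogenous gene are given because this promoter is part of the mouse model. They hold, in capitals, an ETS motif (CCGGAAGT) 224 bases before the start, a KLF and SP motif (GGGCGG) 187 bases before it and an HNF4 motif (CAAAGGTC) 27 bases before it.
Vil1, chr1:74409134-74409383, plus strand: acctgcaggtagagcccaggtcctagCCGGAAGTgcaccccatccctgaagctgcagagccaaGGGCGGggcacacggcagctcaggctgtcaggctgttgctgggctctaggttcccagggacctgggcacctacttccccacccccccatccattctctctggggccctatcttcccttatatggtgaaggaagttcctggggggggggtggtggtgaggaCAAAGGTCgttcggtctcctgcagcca
Of all windows, 2.88% had the ETS motif, 32.7% the KLF and SP motif and 2.19% one of the HNF4 spellings CAAAGTCC and CAAAGGTC. Of the members, Vil1 alone had the first and the last, while GGGCGG was also found for Espn, Ezr and Ush1c. A GATA motif, AGATAA, present in 9.99% of windows, was found for none of them.

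Eps8 (ENSMUSG00000015766, chr6:137477245-137654876, minus strand), the tip capping protein, ranged from 59.3 to 87.5 in Spry2IEKO mice (median 71.9) and from 75.9 to 102 in Spry2FF mice (median 84.2). The groups overlapped, and the log2 difference was -0.24 ± 0.10 (SE; unadjusted p = 0.0397, limma adjusted p = 0.785). Espn (ENSMUSG00000028943, chr4:152120331-152152371, minus strand), the other bundler, averaged 23.3 ± 6.10 against 25.2 ± 3.45 (SD, n = 6). With a 95% interval from -0.47 to 0.20 around -0.14, Espn was the least precisely measured of the 10 genes, and its coefficient of variation in Spry2IEKO mice, 26.2%, was the highest of any of them in either group.

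Both genes that link membrane and core were lower on average with overlapping groups. Ezr (ENSMUSG00000052397, chr17:6738041-6782784, minus strand), the membrane to actin cross-linker, ranged from 254 to 320 in Spry2IEKO mice (median 292) and from 305 to 401 in Spry2FF mice (median 317). All 6 Spry2IEKO mice were under the Spry2FF mean, 3 of them under every control, and the log2 difference was -0.23 ± 0.087 (SE; unadjusted p = 0.0222, limma adjusted p = 0.753). Myo1a (ENSMUSG00000025401, chr10:127705170-127720940, plus strand), the lateral link motor, was spread from 184 to 290 in Spry2IEKO mice and from 243 to 281 in Spry2FF mice. Its Spry2IEKO values lay on both sides of the controls, 4 mice below all of them and 2 above all of them, and its log2 difference of -0.15 had a 95% interval from -0.37 to 0.070.

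**Figure D2:**
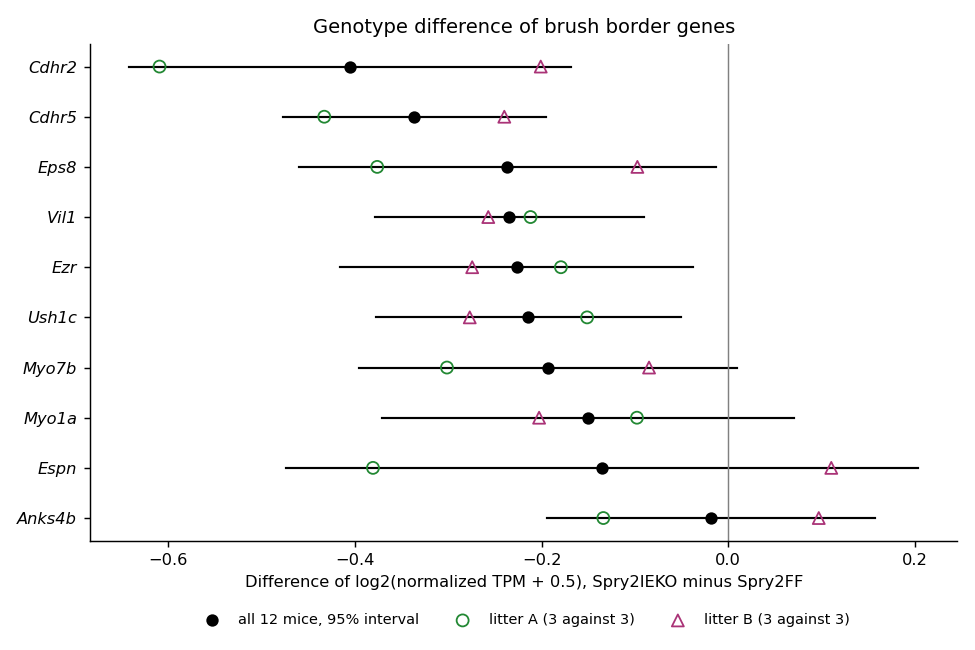
Log2 difference between Spry2IEKO and Spry2FF mice (horizontal axis, log2(normalized TPM + 0.5)) for each of the 10 genes. Filled points with lines are the estimate and 95% interval over 12 mice, open circles litter A and open triangles litter B (3 against 3 mice each); every estimate over 12 mice lies below 0, and litter B lies above 0 for Espn and Anks4b.

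The mouse with the least brush border RNA was Spry2IEKO replicate 4, a female of litter A. It was the lowest of the 12 mice for 6 of the 10 genes, and its summed level was 1379. In the other 5 Spry2IEKO mice the sum lay between 1593 and 1754, and in the Spry2FF mice between 1783 and 2021. The sums of the genotypes thus did not overlap, with 1754 and 1783 as the nearest values. Cdhr5, the most abundant member, weighs most in this sum and was the only member whose groups did not overlap. How often sums of other gene sets separate the genotypes was not tested. Replicate 4 also had the lowest epithelial marker sum (7940) and, with replicate 5, a high sum over 8 fat cell genes (662 and 1266, against 101 to 192 in every other mouse). Without replicate 4, the log2 difference was -0.29 for Cdhr5, -0.32 for Cdhr2 and -0.20 for Vil1, and 4 rather than 6 genes were lower at an unadjusted p under 0.05, Ezr and Eps8 being lost. Without replicates 4 and 5 the values were -0.29, -0.28 and -0.21, and 4 genes were at that level, these 3 and Eps8, whereas Ush1c (-0.15) was not.

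Epithelial markers moved with these genes. The mean z-score of the epithelial markers was -0.38 ± 0.51 in Spry2IEKO and 0.38 ± 0.34 in Spry2FF mice (SD, n = 6), and of the 8 markers 7 were lower in Spry2IEKO, 3 of them (Cdh1, Krt8 and Krt19) at an unadjusted p under 0.05. As a percentage of the summed epithelial markers, Cdhr5 was 4.06 ± 0.25 in Spry2IEKO and 4.64 ± 0.57 in Spry2FF mice, and Cdhr2 was 1.57 ± 0.18 and 1.88 ± 0.28. On this scale the groups overlapped for all 10 genes, with Vil1 at 2.99 ± 0.32 and 3.16 ± 0.23 and Anks4b at 0.74 ± 0.10 and 0.68 ± 0.10. With the epithelial score in the limma model, Cdhr5 was the one gene left at an unadjusted p under 0.05, with a log2 difference of -0.25 (unadjusted p = 0.0130). In that model the difference was -0.18 for Cdhr2, -0.14 for Vil1 and -0.037 for Ush1c, and it turned to 0.18 for Espn. Sex was unequal between the genotypes, and with sex in the model the differences were -0.30 for Cdhr5, -0.34 for Cdhr2 and -0.22 for Vil1. In that model 4 rather than 6 genes were at an unadjusted p under 0.05, Ezr (unadjusted p = 0.0525) and Eps8 (unadjusted p = 0.0970, both from limma) being lost, and Myo7b moved to -0.11. In females alone, 5 Spry2IEKO against 3 Spry2FF mice, Cdhr5 (-0.28) and Ush1c (-0.29) were at that level, and Eps8 (-0.079), Ezr (-0.084) and Vil1 (-0.16) were nearer to 0.

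Within the litters, Cdhr5 was the one member that separated the genotypes in both. In litter A all 10 genes had a negative log2 difference between the genotypes (median -0.26), and in litter B 8 of them did (median -0.20). Cdhr5 stood at 314 to 390 against 464 to 507 in litter A and 364 to 389 against 431 to 469 in litter B. Cdhr2 and Anks4b were lower without overlap in litter A, where Cdhr2 ranged from 107 to 145 against 172 to 213. Vil1 and Ush1c were lower without overlap in litter B, Vil1 at 252 to 275 against 297 to 340 and Ush1c at 98.9 to 117 against 126 to 129. With 3 mice against 3, 6.09% of tested genes were lower without overlap in litter A and 5.26% in litter B. The log2 difference of Cdhr2 was -0.61 within litter A and -0.20 within litter B, that of Eps8 was -0.38 and -0.097, and that of Espn was -0.38 and 0.11. Sex was uneven in litter A, where every Spry2IEKO mouse was female and Spry2FF replicates 2 and 3 were male. In litter B the males were Spry2IEKO replicate 8 and Spry2FF replicate 9. Spry2IEKO replicates 4 and 5, with the highest fat marker sums, were both of litter A. The part of sex and of these mice in the litter A differences was not tested.

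The difference between the litters in the genotype effect was tested directly, without sex in the model. A litter difference therefore cannot be told apart from the uneven sex in litter A. No member passed an adjusted p under 0.05 in limma, and none did at an unadjusted p under 0.05, where 4.19% of all genes did and 2 genes (0.0126%), Gm44478 and Gm9385, passed the adjusted threshold. The largest estimates were 0.49 ± 0.30 (SE) for Espn and 0.41 ± 0.19 for Cdhr2 (unadjusted p = 0.0583). The litters alone were also compared, with genotype in the model. Of all genes 4.38% passed the adjusted threshold between litters and 21.9% were at an unadjusted p under 0.05, but of the 10 brush border genes 0 did either. Their log2 differences, litter B minus litter A, lay between -0.075 for Eps8 and 0.11 for Espn, with a median of -0.012 against -0.049 over all genes. For Vil1 the 95% interval was -0.16 to 0.13, and for Cdhr5 -0.17 to 0.11.

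Cdhr5 had 5 annotated transcripts, of which 3 coding ones held 44.95%, 30.7% and 19.0% of its level. The first (ENSMUST00000167263.8) averaged 162 in Spry2IEKO and 213 in Spry2FF mice, the second (ENSMUST00000080654.6) 114 and 142 without overlap between the groups, and the third (ENSMUST00000210124.1) 71.9 and 86.2. All 5 forms were lower on average, with a retained intron form at 20.1 and 21.6 and a nonsense-mediated decay form at 1.1 and 2.4. For Vil1 the main coding transcript (ENSMUST00000027366.12), with 93.5% of the level, averaged 253 ± 19.8 and 297 ± 16.3 (SD, n = 6). Its groups did not overlap, although those of the gene sum did, and 0.104% of tested transcripts were lower without overlap. Ezr and Myo1a were each carried almost wholly by 1 coding transcript (96.8% and 97.6%), and Cdhr2, Anks4b and Myo7b (minus strand, chr18:31959234-32036961) had 1 transcript each. Espn had the most annotated transcripts, 20, of which 9 were at 0 in all mice, and its main one held 64.6%. No transcript of the 10 genes passed limma over 45372 transcripts (lowest adjusted p = 0.789), where 0.0022% did, a single transcript of B4galnt2.

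Other parts of the microvillus were compared with the members through lists of related genes, of which none had a gene called between the genotypes. Of 12 other actin bundlers and core regulators, such as the bundler Pls1 at -0.087 and the nucleator Cobl at -0.083, 10 were below 0 and none was at an unadjusted p under 0.05, with a median of -0.085. Of 11 other linkers and scaffolds tested, 3 were lower at that level, Slc9a3r1 (the ezrin-binding scaffold) at -0.27, Myo5b at -0.22 and Myo6 at -0.14. The terminal web, the actin and keratin mesh in which microvilli are rooted, had the list median nearest to that of the members: 10 of 11 were below 0 and 6 were lower at that level, with a median of -0.21, among them the myosins Myh14 at -0.34 and Myh9 at -0.25 and the keratin Krt20 at -0.37, whereas Krt18 was at 0.11. Krt8, Krt18, Krt19 and Krt20 stand in the epithelial or absorptive marker lists too.

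Of 17 tested paralogs of the members 10 were below 0, with a median of -0.085. Scin, a villin relative, was the one at an unadjusted p under 0.05, and it was higher by 0.51, whereas Gsn was at -0.062 and the Eps8 relative Eps8l3 at -0.16. Of 18 tested apical enzymes and transporters, 2 were lower at that level, Ceacam20 at -0.40 and the sodium/proton exchanger Slc9a2 at -0.23, and the median was -0.10. Of 12 tested transcription factors of enterocyte genes, 3 were lower at that level, Elf3 at -0.22, Hnf4a at -0.21 and Cdx1 at -0.15, and the median was -0.060. Absorptive cell markers were below 0 in 11 of 12 (median -0.28), and goblet cell markers above 0 in 8 of 8 (median 0.55). Tuft cell markers were above 0 in 8 of 9 (median 0.50), enteroendocrine in 7 of 7 (0.29), B cell in 6 of 6 (1.32), macrophage in 7 of 7 (0.31) and fat in 7 of 7 (1.02). Smooth muscle markers were below 0 in 7 of 8 (-0.14) and skeletal muscle markers in 5 of 5 (-0.47), while stem and proliferating markers had a median of 0.047. At an unadjusted p under 0.05, 7 goblet, 3 tuft, 1 enteroendocrine and 1 fat marker were higher. At that level 2 absorptive and 2 skeletal muscle markers were lower. No B cell, macrophage, smooth muscle or stem and proliferating marker was at that level. The fat marker sums were 662 and 1266 in Spry2IEKO replicates 4 and 5, against 101 to 192 in every other mouse. The part of these cell types in the members' differences was not tested.

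**Figure D3:**
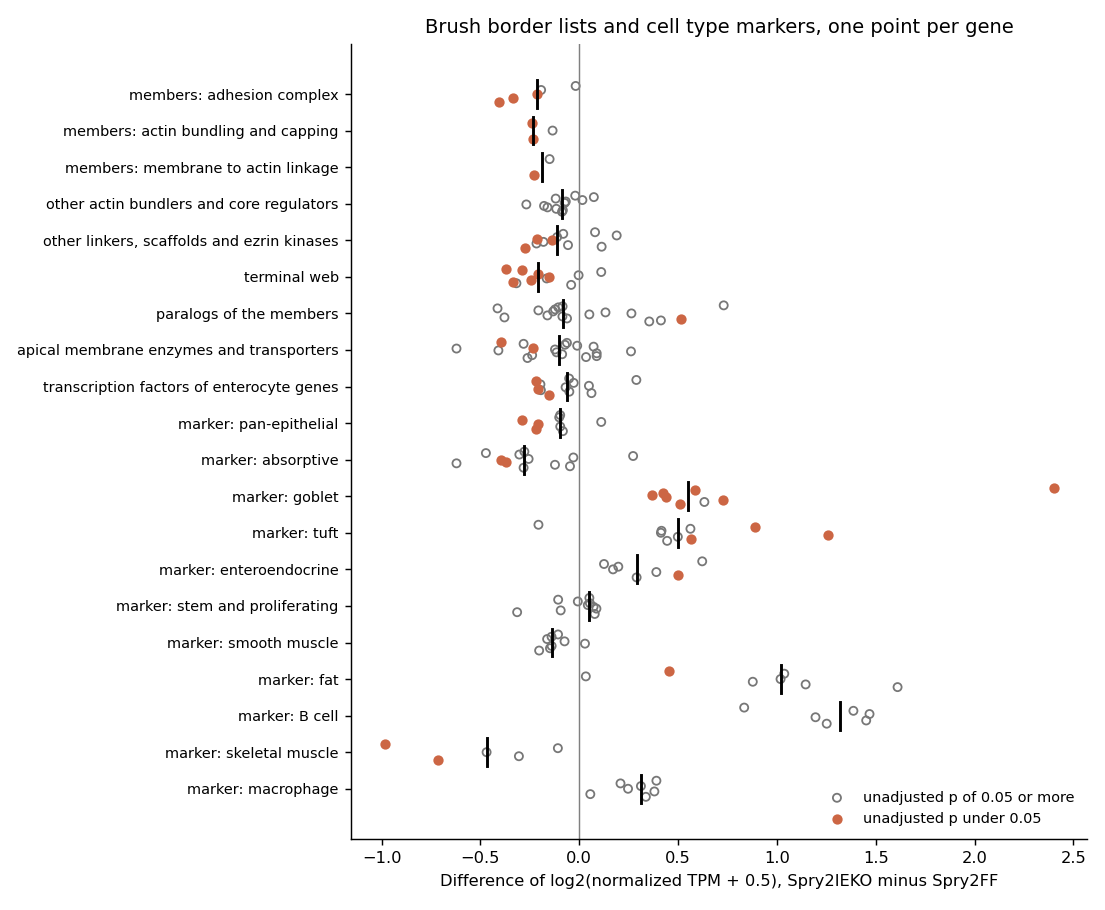
Log2 difference between Spry2IEKO and Spry2FF mice (horizontal axis) for each tested gene of each list. Points are genes, filled where the unadjusted limma p was under 0.05, and vertical bars are list medians; the 3 member lists and the terminal web lie mostly left of 0, with member medians of -0.21, -0.23 and -0.19, and the goblet list lies right of 0.

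Over the 12 mice many pairs of brush border genes were correlated, and the values within a genotype or litter (6 mice each) varied widely. These correlations are descriptions over the same libraries, which share their scaling, their epithelial content and the genotype difference. Of the 45 pairs of members, 25 had a Pearson r above 0.5 on the log2 scale, all of them among the 36 pairs without Anks4b. Within Spry2IEKO mice 23 pairs did and within Spry2FF mice 11, where 17 pairs were below 0, such as Cdhr5 with Ush1c (-0.86) and Cdhr2 with Myo1a (-0.67). In litter A 35 pairs were above 0.5 and in litter B 18. Without the 2 mice farthest from the median, which were chosen separately for each pair, 15 were. Vil1 and Ezr were closest, at r = 0.93 (Spearman's rho 0.92), with values of 0.97 and 0.91 in litters A and B, 0.91 within Spry2IEKO and 0.93 within Spry2FF mice, and 0.88 without the 2 mice farthest from the median. Ezr was the gene with the highest r to Vil1 of all 15879 others tested. The protocadherins Cdhr2 and Cdhr5 followed at r = 0.90 (rho 0.85), with values of 0.99 and 0.69 in litters A and B and 0.77 without the 2 farthest mice. Myo7b was nearest to Cdhr5 among the members (r = 0.82), as was Eps8 (r = 0.77), and Ush1c was nearest to Myo1a (r = 0.75).

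Over the 12 mice Anks4b had the lowest correlations with the others, with signs that differed between the litters. Anks4b was in the lowest pair of each litter too. Its r ranged from -0.59 with Myo1a to 0.33 with Eps8, with a median of 0.067 over the 9 pairs, against 0.61 over the 36 pairs of the others. In litter A all 9 were above 0, from 0.20 to 0.69 (Cdhr5), and in litter B they ranged from -0.90 with Myo1a, which was at 0.27 in litter A, to 0.26. Within Spry2FF mice Anks4b and Espn reached 0.84. The genes most like Anks4b were 5033404E19Rik (r = 0.88), Myb (0.87) and Tmigd3 (0.85). The genes most like the others included Gpr137b-ps (0.96) and the transporters Slc22a18 (0.94) and Slc9a2 (0.93) for Cdhr2, Gm29397 (0.93) for Cdhr5, and Aes (0.97), Esrra (0.95) and Myh14 (0.93) for Ush1c. Espn was nearest to Prr15l (0.89), Myo1a to Dcaf8 (0.96), Eps8 to Endod1 (0.93), Myo7b to Med15 (0.94) and Ezr to Setd5 (0.93). None of these genes passed the adjusted threshold between the genotypes.

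**Figure D4:**
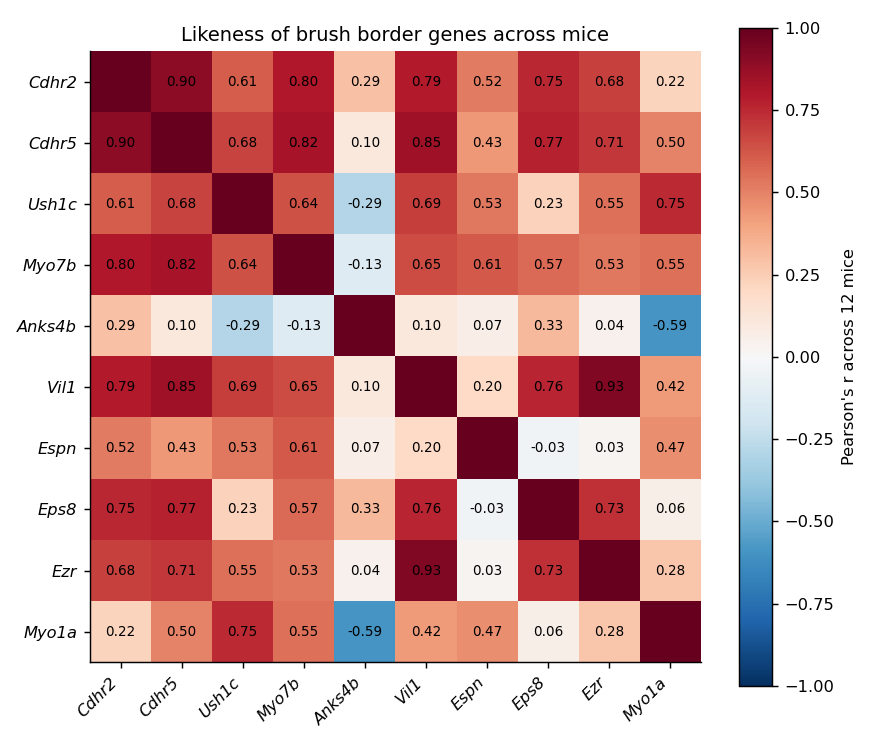
Pearson's r across 12 mice between the log2 levels of each pair of the 10 genes, from -1 (blue) to 1 (red), with the value in each cell. Vil1 with Ezr and Cdhr2 with Cdhr5 are the highest pairs, at 0.93 and 0.90, and the Anks4b row is pale or blue.

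Cdhr5 lies 413.6 kb from Muc2, the main secreted mucin of goblet cells, on chromosome 7. The genotype estimates of these neighbours had opposite signs, and neither gene passed the adjusted threshold. Muc2 averaged 1246 ± 162 in Spry2IEKO and 864 ± 108 in Spry2FF mice (SD, n = 6), without overlap, a log2 difference of 0.53 ± 0.10 (SE; limma adjusted p = 0.160). Between them lie 17 tested genes, 9 above 0 and 8 below, from -0.31 for Slc25a22 to 0.21 for Cracr2b with a median of 0.0066. Of these, 4 were at an unadjusted p under 0.05, Tmem80 at 0.19, Cracr2b at 0.21, Taldo1 at -0.15 and Cd151 at -0.24, against 6.18% of all genes, and none passed the adjusted threshold. Signs were mixed along the interval, and the tested gene nearest to Cdhr5, Sct, was at 0.13.

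**Figure D5:**
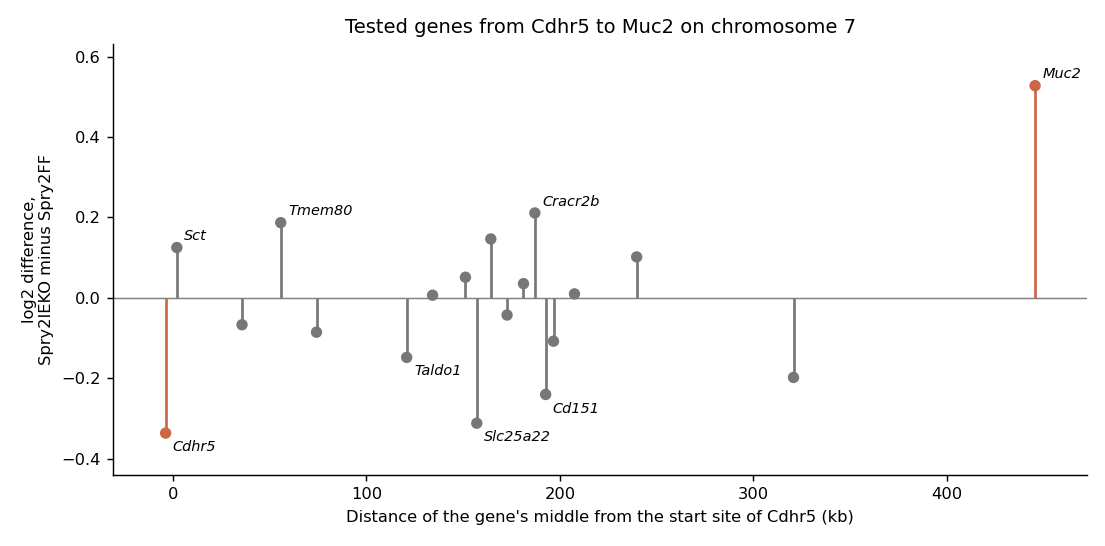
Log2 difference between Spry2IEKO and Spry2FF mice (vertical axis) for Cdhr5, Muc2 and the 17 tested genes between them, by the distance of each gene's middle from the start site of Cdhr5 in kb. Cdhr5 at -0.34 and Muc2 at 0.53 lie at the ends, and the genes between lie from -0.31 to 0.21.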

How the data were processed

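RNA of full-thickness distal colon was made into stranded mRNA libraries and sequenced. The deposited labels call the reads paired-end and the study's methods call them single-ended. The authors pseudoaligned the reads with kallisto and deposited a table of abundances per transcript, a signal in TPM that had been scaled between mice; CASAVA, sleuth and the build mm10 are named in the submitters' processing notes. No counts were used and the depth of each mouse is not kept in the table, so no counting interval is given. The members and gene lists were chosen with earlier results of these data known. The table held 113974 rows for 113193 transcripts, and 781 repeated rows were dropped before transcripts were summed per symbol. Genes averaging at least 0.5 over the mice were tested as log2(value + 0.5), a scale that understates the change of low genes, with limma 3.58.1 (lmFit, eBayes with trend) in R 4.3.3, two-sided, with Benjamini-Hochberg adjustment over 15880 genes. Genotype was fitted without covariates, litter with genotype in the model, and their interaction in a model with both. The labels call the samples separate mice. The fit was tested on simulated data.

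Named genes were all 10 members, Muc2, Spry2, the genes with the highest and lowest test statistic of each list and those called in it, and the 3 most correlated genes of each member; others given as examples were chosen after their values were seen. A called gene is not reported here. Gene positions are from the GENCODE annotation of GRCm38 and promoter windows from RefSeq (GRCm38.p6), of which 10 windows for 8 members were used. Motifs were searched on both strands. Vil1 overlaps Usp37 (mean 10.2) and Ezr overlaps Sytl3 (mean 0.42), each on the opposite strand. Alternatives covered the pseudocount, the filter, the scaling, covariates, subsets of mice, single transcripts and leaving out each mouse. Figures were drawn with matplotlib 3.10.9.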

Additional observations from a re-analysis of the deposited data

Results flagged for a closer look

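In 46 groups of 4 to 10 mice, a single value stood far from the others of its group: Cdhr5 in Spry2IEKO replicate 4, at 314.4 normalized TPM. The other 5 Spry2IEKO mice lay between 364 and 390, and the gap to the nearest took up 0.655 of the range of the group, above Dixon's 95% critical value for 6 values. Chance flags about 1 in 20 groups. The same mouse had the lowest epithelial marker sum (7940) and the second highest fat marker sum (662), whose part in the value was not tested.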

How the results depend on the processing

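Over the 10 members the genotype difference kept its sign in every alternative and in every fit without 1 mouse for Cdhr5, Cdhr2, Vil1, Ush1c, Ezr, Eps8, Myo7b and Myo1a. It turned positive for Anks4b in litter B alone (0.097) and for Espn in litter B alone (0.11), with the epithelial score in the model (0.18) and without the mice with the highest fat marker sums (0.059); leaving out 1 mouse moved Anks4b from -0.058 to 0.018. No member passed the adjusted threshold in any of these fits. The lowest adjusted p was 0.107, for Cdhr5 without Spry2IEKO replicate 8. Over the alternatives the adjusted p ranged from 0.151 to 1 for Cdhr5 and from 0.387 to 1 for Cdhr2. The members lower at an unadjusted p under 0.05 numbered 6, and 4 with sex or with litter and sex in the model (Ezr and Eps8 lost), 2 in females alone, 2 in litter A, 3 in litter B and 1 with the epithelial score in the model; without 1 mouse they numbered 4 to 7.

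Genes changed by genotype numbered 5. They numbered 3 with a minimum mean of 0.1, 1 without a filter, 2 after quantile normalization, 1 with sex in the model, 1 with litter and sex, 2 in females alone, 1 with the epithelial score, 2 with the main transcript alone, 1 in each litter alone and 0 without the mice with the highest fat marker sums. Without 1 mouse they numbered 1 to 11, the highest without Spry2IEKO replicate 8. The models with litter and sex, the fits without the mice with high fat marker sums and the fits over transcripts were chosen after seeing the data.

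Genes changed by litter numbered 696, and 422 without a filter, 1456 with the same total in each mouse, 1 in females alone, 31 with the epithelial score, 2 in Spry2FF alone, 1 in Spry2IEKO alone and 18 without the mice with high fat marker sums; without 1 mouse they numbered 178 to 957. Equal totals moved the median litter difference of all genes from -0.049 to -0.12. No member was called by litter in any fit, and signs near 0 turned. Myo7b turned after quantile normalization (0.035), in females alone (0.019) and in Spry2IEKO alone (0.086). In females alone Anks4b (0.037), Vil1 (0.020), Eps8 (0.060) and Ezr (0.012) turned. With the epithelial score Cdhr2 (-0.029), Ush1c (-0.0025) and Espn (-0.062) turned. With the main transcript alone Cdhr5 (0.0049) and Eps8 (0.17) turned. In Spry2FF alone Cdhr2 (-0.11), Vil1 (0.011), Espn (-0.13), Ezr (0.035) and Myo1a (0.042) turned, and in Spry2IEKO alone Cdhr5 (0.065), Anks4b (0.065) and Eps8 (0.064). Without the mice with high fat marker sums Cdhr2 (-0.038) and Espn (-0.11) turned. Without 1 mouse the litter difference ranged from -0.079 to 0.022 for Myo7b, from -0.056 to 0.022 for Vil1, from -0.071 to 0.024 for Ezr and from -0.075 to 0.070 for Myo1a. Of the interaction estimates, Vil1 turned after quantile normalization (0.0012), and its count of 2 genes did not move. The cause of these shifts was not tested.

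No analysis by pairs of mice was possible because every mouse has a number of its own and the genotypes share none. The genotypes do share litters. With litter in the model, 6 genes passed the adjusted threshold for genotype, none of them a member. In that model 6 members were lower at an unadjusted p under 0.05. With 6 mice in each group, Espn, Myo1a, Anks4b and Myo7b have intervals that hold differences of either sign, and read depth is not kept in the values.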
